A study of Homo sapiens with 7 samples.

Results

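The luminal lineage transcription factors examined here were 9 genes, ESR1, PGR, FOXA1, GATA3, XBP1, TFAP2A, TFAP2C, SPDEF and TBX3, of 19970 protein-coding genes annotated on chromosomes 1 to 22 and X. A peak was assigned to a member as a promoter peak where it overlapped the stretch from 2000 bp upstream to 500 bp downstream of any transcription start site (TSS) of that gene in GENCODE 44. It was assigned as a distal peak where it lay outside these stretches but within 50 kb of the gene, and the member had the TSS nearest to the summit among protein-coding genes. By this rule 12 of the 21231 peaks in 7 peak lists belonged to a member.

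Rb, the retinoblastoma protein, was mapped by CUT&RUN, in which a nuclease tethered to an antibody cuts out the DNA around a bound protein, in ZR-75-1, a long-established line of luminal breast cancer cells that express the oestrogen receptor. Parental cells were treated for 4 days with 500 nM palbociclib, an inhibitor of the kinases CDK4 and CDK6, or with an equal volume of DMSO, with 2 Rb libraries each. RB1 KO cells, made by CRISPR editing and sorted as single cells into clones according to the methods, gave 1 Rb library with DMSO and 1 with palbociclib, so that each KO condition rested on 1 library of what may be 1 clone. The antibody background came from 1 library made with non-targeting IgG2a in palbociclib-treated parental cells, and no IgG2a list of DMSO-treated cells was analysed here.

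Luminal breast cells are defined by a small set of transcription factors that act together on enhancers. ESR1 encodes the oestrogen receptor and PGR, its classical target, the progesterone receptor. FOXA1 is a pioneer factor that opens chromatin for the receptor, GATA3 is a zinc finger factor of luminal differentiation, and the AP-2 factors TFAP2A and TFAP2C bind many of the same enhancers. Rb is known for binding E2F factors at promoters of cell cycle genes, and CDK4 and CDK6 phosphorylate it and release it from E2F.

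With palbociclib, Rb peaks were called at the promoters of FOXA1, TFAP2A, TFAP2C and TBX3 in both libraries, and at GATA3 in 1 library. The receptor genes ESR1 and PGR, the secretory regulator XBP1 and the ETS factor SPDEF had no Rb peak in any list, at the promoter or distally. No member had a peak in a DMSO library or in an RB1 KO library, and no member promoter had a peak with IgG2a. The 2 palbociclib libraries held 10 promoter peaks and 1 distal peak of the members.

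**Figure D1:**
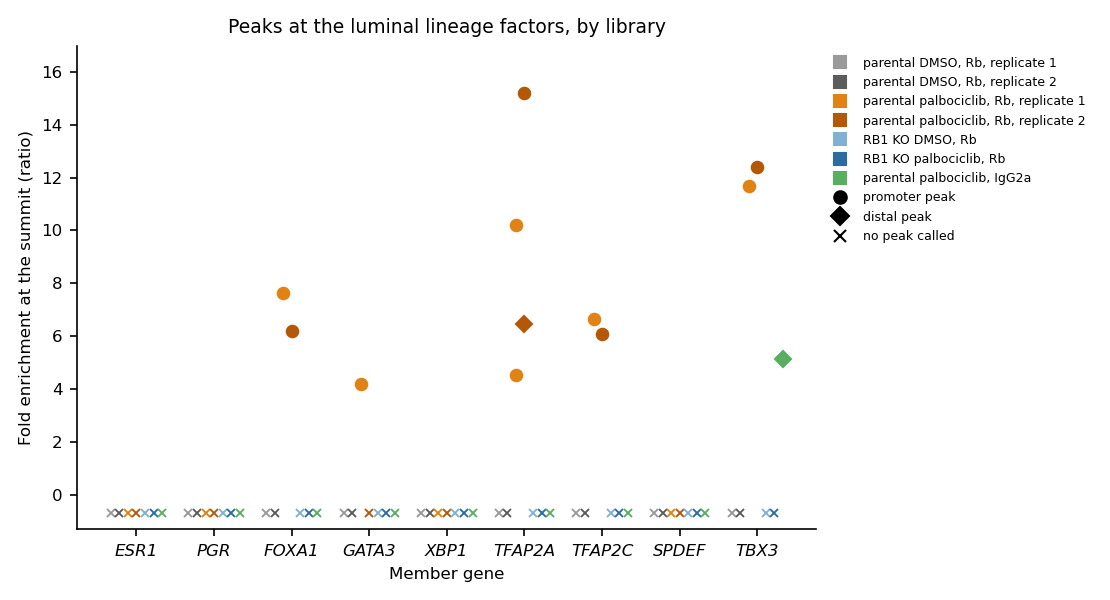
Fold enrichment (vertical axis, ratio of pileup plus 1 to background plus 1 at the summit) of every peak assigned to the 9 members (horizontal axis), coloured by library, with circles for promoter peaks and diamonds for distal peaks. Crosses below 0 mark libraries with no peak at that gene and carry no value. Apart from the IgG2a diamond at TBX3, each symbol with a value came from a palbociclib Rb library, from 4.18 at GATA3 to 15.2 at TFAP2A.

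These counts were read against those of all genes. A promoter peak in both palbociclib lists was found for 4 of 9 members, 44.4% (95% exact Clopper-Pearson interval 13.7% to 78.8%, counting error only), compared with 34.5% of all protein-coding genes. For 5 of 9 members a promoter peak was called in at least 1 palbociclib list, compared with 43.7% of genes, and GATA3 belonged to the 8.82% of genes with a promoter peak in 1 of the 2 lists only. All 4 consensus regions were gained, meaning that they were called in both palbociclib lists and overlapped no peak of either DMSO list. A gained promoter peak was thus found for 4 of 9 members, 44.4%, compared with 28.5% of all protein-coding genes. Gain was usual for a region called with palbociclib, since 5520 of all 6644 palbociclib consensus regions were gained. In single lists a promoter peak was called for 5 and 4 members with palbociclib, compared with 39.6% and 39.0% of genes. None of the members was among the 2.82% of genes with a promoter peak in both DMSO lists or the 6.59% with one in at least 1 DMSO list, and the single DMSO lists held a promoter peak for 5.22% and 4.28% of genes. Only 0.0300% of genes had any peak in the RB1 KO lists (0.00501% a promoter peak with DMSO and 0.00501% with palbociclib) and 1.95% had a promoter peak with IgG2a, so that the absence of members there matched that of most genes.

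The lists differed in length. The DMSO lists held 922 and 753 peaks on chromosomes 1 to 22 and X, the palbociclib lists 8314 and 8171, the RB1 KO lists 4 and 5, and the IgG2a list 1724. Read totals are not part of the lists. The lowest background in a list, which scales with its sequenced fragments, was 0.571 and 0.465 with DMSO and 0.516 and 0.549 with palbociclib, so that depth by this measure overlapped between the groups. The effective cutoff did not overlap. The lowest −log10 p of a called peak was 5.23 and 5.33 with DMSO and 4.15 in each palbociclib list. When the parental lists were each limited to their 816 best peaks by q-value, the length of the shortest deposited parental list, no member had a promoter peak in both palbociclib lists. The share of all genes with such a peak in the limited lists is not given here. This count is therefore not a result about the members.

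The DNA at 4 of these regions is shown, the TFAP2A promoter region with the highest Rb signal of the members, the FOXA1 region called in both lists, and the GATA3 and distal TFAP2A regions called in 1 list only. The sequences are from hg38, within 100 bp of the strongest summit, in lower case with the motifs searched here in capitals (GGGCGG for the SP/KLF family, CCAAT for NFY, and TTTCCCGC, TTTGGCGC, TTTCGCGC or TTTGCCGC for E2F, all on both strands). Bases in a UTR were left out of the FOXA1 sequence, and with them 1 of its GGGCGG matches and its AP-2 match.
TFAP2A, chr6:10404249-10404449, plus strand: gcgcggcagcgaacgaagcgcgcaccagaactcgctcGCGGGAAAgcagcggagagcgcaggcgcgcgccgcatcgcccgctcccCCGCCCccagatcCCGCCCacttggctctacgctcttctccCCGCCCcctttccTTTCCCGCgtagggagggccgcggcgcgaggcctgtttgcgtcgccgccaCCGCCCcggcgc
FOXA1, chr14:37595503-37595628, plus strand: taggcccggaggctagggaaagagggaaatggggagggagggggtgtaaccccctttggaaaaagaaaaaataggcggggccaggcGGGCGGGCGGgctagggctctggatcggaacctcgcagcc
GATA3, chr10:8054472-8054672, plus strand: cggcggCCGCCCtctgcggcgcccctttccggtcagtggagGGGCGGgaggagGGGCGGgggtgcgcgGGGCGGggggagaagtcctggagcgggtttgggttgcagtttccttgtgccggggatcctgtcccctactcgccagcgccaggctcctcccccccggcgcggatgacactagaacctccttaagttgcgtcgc
TFAP2A, chr6:10383468-10383668, plus strand: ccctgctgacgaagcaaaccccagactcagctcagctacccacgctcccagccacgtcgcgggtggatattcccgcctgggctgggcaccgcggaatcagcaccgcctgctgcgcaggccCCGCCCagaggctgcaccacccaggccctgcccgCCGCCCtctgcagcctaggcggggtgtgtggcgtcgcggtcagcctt

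The TFAP2A promoter summit lay between E2F matches on either side, GCGGGAAA at 60 bp and TTTCCCGC at 42 bp. Its window was the only one of the 7 windows at member regions with an E2F match, and 5.92% of the 6046 promoter consensus regions of the palbociclib libraries held one. GGGCGG, or CCGCCC on the other strand, occurred in 6 of the 7 windows, with 4 matches each at TFAP2A and GATA3, 3 at FOXA1 and 2 at TBX3, and in 70.4% of promoter regions at large. The windows of the 4 consensus regions and GATA3 were 62.7% (TBX3) to 75.1% (TFAP2A) G and C, around the median of 70.6% for all promoter consensus regions. No window held an oestrogen response element, searched by name as GGTCA and TGACC half-sites separated by 3 bases with at most 1 mismatch, and such a match was found in 0.364% of promoter regions and 0.836% of the 598 non-promoter regions. TGTTTAC of FOXA factors and AGATAA of GATA factors were likewise in none of the 7 windows, and in 0.777% and 1.27% of promoter regions. GCCNNNGGC of AP-2 factors had 1 match at FOXA1 and 1 at the weaker TFAP2A region, and occurred in 29.9% of promoter regions. CCAAT occurred once, at TFAP2C, and in 26.0% of promoter regions. CCGGAAGT of ETS factors, TGACGTCA (CRE), TGANTCA (AP-1) and the NRF1 motif had no match in the 7 windows and were found in 3.24%, 1.17%, 1.70% and 1.32% of promoter regions. These matches describe letters in a window and do not show which factor is bound.

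Among the receptor genes, ESR1 and PGR were far from any Rb peak. From the closest ESR1 TSS to the nearest summit the distance was 204 kb in both palbociclib libraries and 1039 kb in both DMSO libraries. For PGR it was 785 and 1323 kb with palbociclib and 4892 and 10797 kb with DMSO. The median distance over all genes was 19.2 and 21.1 kb with palbociclib and 629 and 857 kb with DMSO. Of all genes, 82.9% and 82.4% were nearer to a palbociclib summit than ESR1, and 96.5% and 98.9% were nearer than PGR. ESR1 had 12 distinct start sites, whose promoter stretches covered 19418 bp, the most of any member, and PGR had 6 start sites and 10228 bp. TFAP2A had 18 start sites and 14567 bp, and SPDEF the least, with 2505 bp. The part of the searched length in the calls was not tested.

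An IgG2a peak lay in the body of ESR1, at chr6:152098772-152098955, in a UTR and 155 kb from its TSS. Its fold enrichment was 6.47, from a pileup of 9 fragments on a background of 0.545. The nearest protein-coding TSS was that of SYNE1, 48.9 kb away, so that the rule did not assign it to ESR1, and none of the 4 parental Rb lists had a summit closer than 204 kb to the ESR1 start sites.

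At FOXA1, the pioneer factor, a promoter peak was called in each palbociclib library. In replicate 1 it spanned chr14:37595435-37595783 (349 bp), with a fold enrichment of 7.62 and a pileup of 14 fragments at the summit. In replicate 2 it spanned chr14:37595374-37595744 (371 bp), with a fold enrichment of 6.21 and a pileup of 14. The mean was 6.92 ± 0.993 (SD, n = 2), higher than the mean of 34.5% of the 6870 genes with a promoter peak in each palbociclib list, for which the median was 8.46 and the quartiles 6.07 and 13.0. The pileups were the same and the fold enrichments differed with the background, which was 0.969 and 1.41. The summits were 354 and 172 bp upstream of the FOXA1 start, in an intron of a longer FOXA1 transcript, and 182 bp apart, where the median distance between replicate summits of all palbociclib consensus regions was 55.0 bp. The promoter stretch of TTC6, a neighbouring gene, overlapped this region, and the replicate 1 summit was 26 bp from a TTC6 TSS, so that the peak cannot be ascribed to 1 of the 2 genes.

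GATA3 had a promoter peak in palbociclib replicate 1 only. It spanned chr10:8054413-8054594 (182 bp), with its summit 116 bp upstream of the start of a GATA3 transcript (GATA3-202) in an intron of the gene, and the promoter stretch of GATA3-AS1, an antisense RNA gene, overlapped it. Its fold enrichment of 4.18 came from a pileup of 7 on a background of 0.916 and exceeded that of 12.4% of peaks in that list. With the same background, a pileup of 6 would have reached the lowest −log10 p of the replicate 2 list, and the nearest replicate 2 summit was 226 kb away. In the DMSO lists a pileup of 7 and 8 would have been needed, so that a peak of the strength seen in replicate 1 would not have entered DMSO replicate 2. The lists therefore do not separate palbociclib from DMSO at GATA3.

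TFAP2A, an AP-2 factor, had the highest fold enrichment of the members. The peak of replicate 1 at chr6:10404222-10404506 (285 bp) had a fold enrichment of 10.2 and a pileup of 19. That of replicate 2 at chr6:10404009-10404526 (518 bp) had a fold enrichment of 15.2 and a pileup of 30. The summits were 2 bp apart, on backgrounds of 0.969 and 1.04, and the mean of 12.7 ± 3.55 (SD, n = 2) was above that of 73.7% of genes with a promoter peak in each list. The summits lay 243 and 245 bp downstream of the start of TFAP2A-204, in an intron, and 151 and 153 bp from the start of TFAP2A-AS2, an antisense RNA gene. The nearest start of a protein-coding transcript in the GENCODE basic set was 8040 and 8042 bp upstream, so that the peak counted as a promoter peak through a transcript outside that set.

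Other regions of TFAP2A were called in 1 library each. A promoter peak of replicate 1 at chr6:10412575-10412926 (352 bp) had a fold enrichment of 4.53 and a pileup of 6, with its summit in coding sequence 101 bp downstream of the start of TFAP2A-207, and the promoter stretch of TFAP2A-AS1 overlapped it. A pileup of 6 was also the lowest that could have entered either DMSO list at that background of 0.547. Of all genes, 5.91% had 2 or more separate promoter peaks in a palbociclib list. The distal peak of the members was that of replicate 2 at chr6:10383407-10383637 (231 bp), in intergenic sequence 21026 bp downstream of the TFAP2A-204 start, with a fold enrichment of 6.46 and a pileup of 9. Its summit was nearer, at 16986 bp, to the TSS of another annotated gene, which is not protein-coding. A distal peak was assigned to 5.16% of genes in at least 1 palbociclib list and to 2.34% in both lists. A gained distal peak was assigned to 2.05% of genes and to no member. In replicate 1 a pileup of 5 would have reached the lowest −log10 p of the list at this background of 0.549, and no peak was called.

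TFAP2C, the other AP-2 factor, had a peak downstream of its start in both palbociclib libraries. The peak of replicate 1 at chr20:56630231-56630759 (529 bp) had a fold enrichment of 6.66 and a pileup of 25. The peak of replicate 2 at chr20:56630215-56630773 (559 bp) had a fold enrichment of 6.10 and a pileup of 21. The summits were 18 bp apart, in an intron, 174 and 156 bp downstream of the start of TFAP2C-202 and 1102 and 1084 bp downstream of the nearest start of a basic-set protein-coding transcript. The mean fold enrichment of 6.38 ± 0.392 (SD, n = 2) exceeded that of 28.6% of genes. The background at these summits was 2.91 and 2.61, compared with a median of 1.45 and 1.56 over the peaks of the same lists, and was the highest of the members.

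TBX3, a T-box factor of mammary development, had strong and closely matched peaks. The peak of replicate 1 at chr12:114684208-114684666 (459 bp) had a fold enrichment of 11.7 and a pileup of 21. The peak of replicate 2 at chr12:114684036-114684842 (807 bp) had a fold enrichment of 12.4 and a pileup of 23. The summits were 7 bp apart, 291 and 284 bp upstream of the start of TBX3-202 and in an intron of TBX3-AS1, and the mean of 12.0 ± 0.491 (SD, n = 2) exceeded that of 71.1% of genes. TBX3 was also the member with a distal IgG2a peak, at chr12:114673361-114673537 (177 bp), in a TBX3 intron 6464 bp downstream of a TBX3 start, with a fold enrichment of 5.12 and a pileup of 7. A distal IgG2a peak was assigned to 3.85% of genes and any IgG2a peak to 5.65%. The IgG2a peak did not overlap the promoter peaks, and no Rb list had a peak there.

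**Figure D2:**
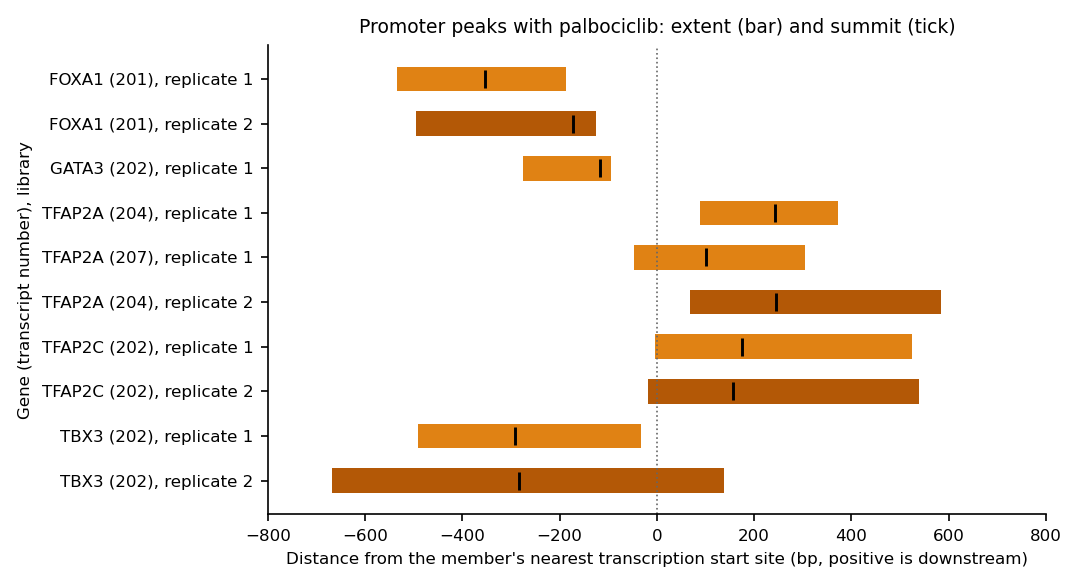
Extent (bars) and summit (black ticks) of the 10 promoter peaks of the palbociclib libraries, in bp from the TSS of the member nearest to the summit (horizontal axis, dotted line at the TSS, positive values downstream), with replicate 1 in light and replicate 2 in dark orange. The FOXA1, GATA3 and TBX3 summits were 116 to 354 bp upstream of that TSS and the TFAP2A and TFAP2C summits 101 to 245 bp downstream.

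The order of the members depended on whether pileup or fold enrichment was read. By mean fold enrichment TFAP2A and TBX3 stood above FOXA1 and TFAP2C, and the ranges of the 2 libraries did not overlap between these pairs. Within each pair the ranges overlapped, with 10.2 to 15.2 against 11.7 to 12.4 and 6.21 to 7.62 against 6.10 to 6.66. By pileup TFAP2C (25 and 21 fragments) lay within the range of TFAP2A (19 and 30) and beside TBX3 (21 and 23), and FOXA1 had the lowest values (14 and 14). With 2 libraries per gene none of these differences was tested.

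**Figure D3:**
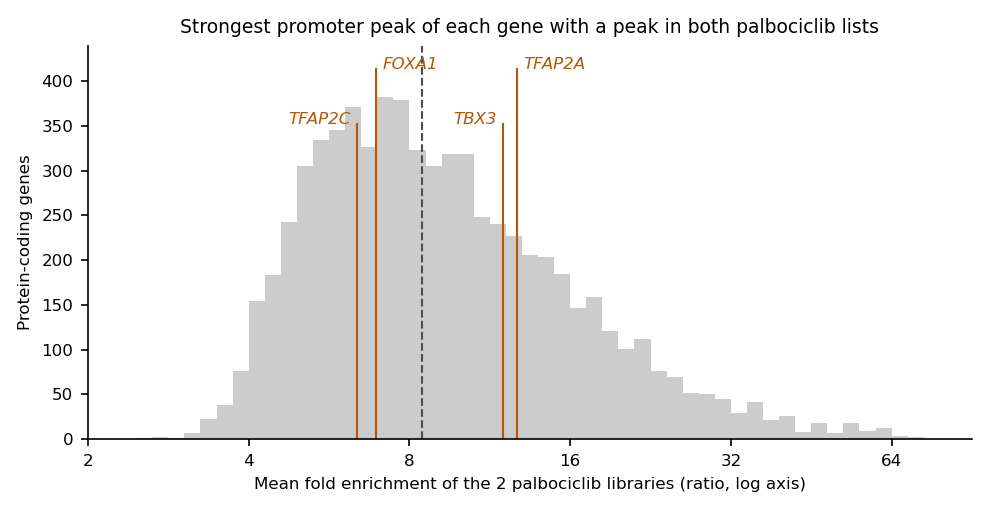
Histogram of the mean fold enrichment over the 2 palbociclib libraries (horizontal log axis, ratio) of the strongest promoter peak of each of the 6870 protein-coding genes with a promoter peak in each list (vertical axis, number of genes), with the median as a dashed line. Orange lines mark the members, TFAP2C at 6.38 and FOXA1 at 6.92 below the median of 8.46 and TBX3 at 12.0 and TFAP2A at 12.7 above it.

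The comparison of palbociclib with DMSO rested on absence from the DMSO lists, which hold no value for a region that was not called. With the background seen at each palbociclib summit, the lowest pileup that could have entered a DMSO list was 8 or 9 fragments at FOXA1, 8 at the strong TFAP2A peak, 12 or 13 at TFAP2C and 7 or 8 at TBX3. Each limit is the pileup that reaches the lowest −log10 p of the list, and peak width was not considered. The palbociclib fold enrichments were 1.50 to 1.67 times these limits at FOXA1, 1.69 to 1.86 times at TFAP2C, 2.22 and 3.44 times at TFAP2A and 2.67 and 2.75 times at TBX3. Rb enrichment at these 4 promoters was thus below the called values in both DMSO libraries under 2 assumptions. These are that the DMSO background equalled that with palbociclib and that a summit at the limit was enough for a call. The margin was smallest at FOXA1. The DMSO background at these sites is not part of the lists. No fold change could be formed and no test was run, and an exact permutation test of 2 libraries against 2 cannot give a p below 0.333.

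**Figure D4:**
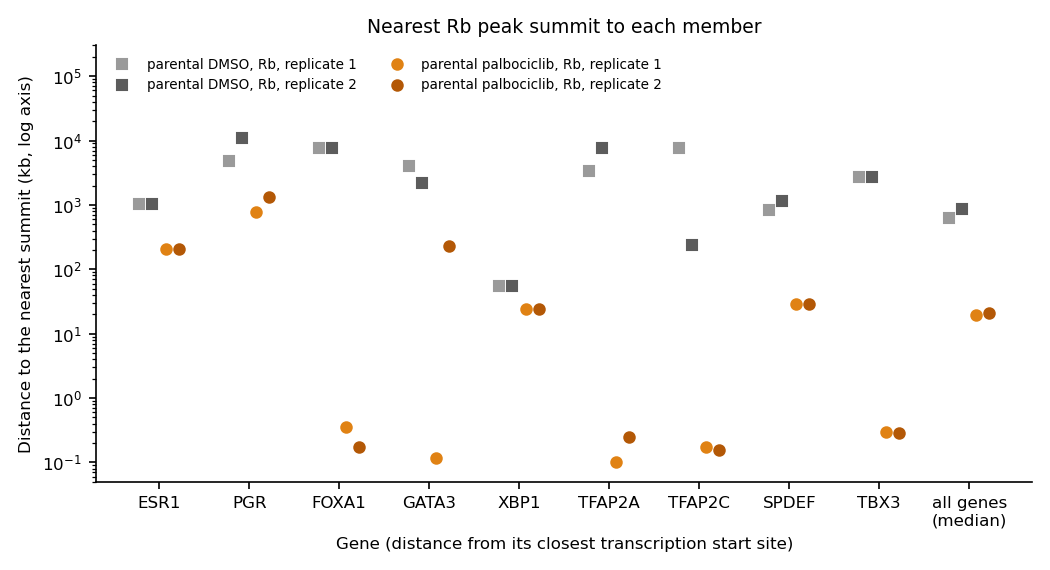
Distance from the closest TSS of each member to the nearest peak summit (vertical axis, kb, log scale) in the DMSO (grey squares) and palbociclib (orange circles) Rb libraries, with the median of all protein-coding genes at the right. FOXA1, TFAP2A, TFAP2C and TBX3 were within 0.354 kb of a summit in both palbociclib libraries, and ESR1 and PGR lay further away than the median in each of the 4 libraries.

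XBP1, a regulator of secretory and stress responses and an oestrogen target, and SPDEF, an ETS factor of luminal secretory cells, had palbociclib peaks in their neighbourhood that the rule gave to other genes. The summit nearest to XBP1 was 24.0 kb away in both palbociclib libraries and lay at the promoter of CCDC117, 203 and 186 bp from its TSS, with fold enrichments of 3.19 and 3.44 and pileups of 13 and 15. The nearest DMSO summits were 54.8 and 54.9 kb from XBP1, and 13.7% and 11.4% of genes were nearer to a DMSO summit. At SPDEF the nearest palbociclib summits were 29.0 kb away in both libraries, in PACSIN1 and 12.4 kb from the PACSIN1 TSS. The peak at chr6:34527224-34527409 had a fold enrichment of 8.97 in replicate 1 and the peak at chr6:34527247-34527472 had 5.07 in replicate 2, from pileups of 21 and 12. These peaks were within 50 kb of the members but nearer to the TSS of another gene. XBP1 and SPDEF were therefore near the median distance of all genes with palbociclib, and ESR1 and PGR were well beyond it.

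The share of genes with a promoter peak rose with the G and C content of the start, and the part of base composition in the members' calls was not tested. In the 300 bp from 250 bases before to 50 bases after each start, the start with the highest G and C content had 72.0% (TFAP2C) to 76.3% (XBP1) at FOXA1, GATA3, XBP1, TFAP2A and TFAP2C, and 49.7% of all genes in that class had a promoter peak in both palbociclib lists. ESR1 and PGR, at 67.0% and 65.3%, were in the class from 60% to 70%, in which 35.3% of genes had such a peak. SPDEF and TBX3, at 52.0% and 59.3%, were in the class from 50% to 60%, in which 15.7% did. Of the members with a promoter peak in both palbociclib lists, FOXA1, TFAP2A and TFAP2C were in the class with the highest share and TBX3 was not. Of those with no peak, XBP1 was in that class and ESR1, PGR and SPDEF were below it.

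Related regulators were described from lists written with earlier results of these data at hand. Of 40 cofactors of the oestrogen receptor and other luminal regulators, 19 had a promoter peak in both palbociclib lists (47.5%, 95% exact interval 31.5% to 63.9%) and none had one in both DMSO lists. A gained promoter peak was found for 18 of them (45.0%, interval 29.3% to 61.5%), compared with 28.5% of all genes. The highest mean fold enrichments were 18.0 at ESRRA, an orphan nuclear receptor, 14.8 at ZNF217, a zinc finger regulator amplified in breast cancer, and 13.8 at MYB, a transcription factor. Their median was 6.48, compared with 8.46 for all genes. ZNF703 was the gene of this list with a promoter peak in both palbociclib lists that was not gained, with a peak of 3.98 in DMSO replicate 1. ESRP1 also had a promoter peak in DMSO replicate 1, of 6.04, which its gained region did not overlap. Of 24 basal and mesenchymal lineage factors, 7 had a promoter peak in both palbociclib lists (29.2%, interval 12.6% to 51.1%), 6 had a gained one (interval 9.77% to 46.7%), none had one in both DMSO lists and the median was 8.81. The highest were NFIB at 14.8, WWTR1 (a Hippo pathway coactivator) at 11.4 and TEAD4, its DNA-binding partner, at 10.2. In DMSO replicate 1, NFIB had a promoter peak of 5.79 outside its gained region. STAT3, which was not gained, had one of 4.26. Of all genes, 34.5% had a promoter peak in both palbociclib lists and 28.5% a gained one. The intervals of the luminal and basal lists overlapped each other for both counts, and they cover counting error only. No list test was run. Since the lists were written with earlier results known, these shares are a description only. Neither list had a peak in an RB1 KO library or a promoter peak with IgG2a. Distal peaks in both palbociclib lists, found for 2.34% of all genes, were assigned to GRHL2 and KMT2C among the 40 luminal regulators and to ID4 and EGFR among the 24 basal factors, and that of KMT2C was not gained.

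The genes whose strongest promoter peaks were most like those of TFAP2A and TBX3 were found by the Euclidean distance of log2 fold enrichment over the 4 parental Rb lists, with a list without a peak set to 1, among 8736 genes. For TFAP2A these were CHCHD4 and TMEM43 (9.96 and 15.2 with palbociclib, distance 0.028 each) and CUTA (10.1 and 15.6, distance 0.038). For TBX3 they were PEX5 (11.6 and 12.4, distance 0.0083), BICDL1 and KAT6B (11.7 and 12.2, distance 0.014 each). None of these 6 genes had a DMSO peak at its promoter. This followed from how they were chosen, since TFAP2A and TBX3 had no DMSO peak and a missing peak was set to 1.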

How the data were processed

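Rb CUT&RUN peak lists of 7 ZR-75-1 libraries were used. Reads had been trimmed (BBDuk) and mapped by the authors to hg38 (Bowtie2 2.3.4.1) with duplicates retained, and MACS2 2.2.7.1 had been run on fragments of each library against matched IgG at a q-value threshold of 0.05. The control of the IgG2a list is not given in the sources used here. The deposited columns hold a display score, the fold enrichment (a ratio of pileup plus 1 to background plus 1 at the summit), and −log10 p and −log10 q, all made by the authors. The score was not used in any result. DiffBind, named in the submitters' notes, needs reads and was not used here.

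Groups and replicate numbers came from the sample titles. Pileup and background at each summit were solved from the fold enrichment and −log10 p, with a largest misfit of 0.0055, and the solution was tested on simulated data. These values limit the precision, since read totals are not part of the lists. Peaks were annotated with GENCODE 44 on GRCh38, and no peak lay beyond the end of its chromosome. Peaks overlapping by at least 1 bp were shared, and joined regions called in both replicates were the consensus. The 6890 genes behind 34.5% had a consensus region at the promoter, and 6870 had a peak of each list there. The named genes were all 9 members, the 3 highest of each gene list, and the 3 genes most like each of the 2 strongest members. ZNF703, ESRP1, STAT3, GRHL2, KMT2C, ID4, EGFR and the neighbours of members were named after their values were seen. The members and lists were chosen with earlier results of these data known. Python 3.11.15, NumPy 2.4.6, SciPy 1.17.1 and pysam 0.24.0 were used.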

Additional observations from a re-analysis of the deposited data

How the results depend on the processing

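The 4 members with a promoter peak in both palbociclib lists, and their gain, were FOXA1, TFAP2A, TFAP2C and TBX3 also at a −log10 q or a fold enrichment of at least 5, with 50% reciprocal overlap, with a promoter from 1000 bp upstream to 1000 bp downstream, and without either DMSO library. With the parental lists limited to 816 peaks both counts were 0. With start sites of protein-coding transcripts of the basic set, both counts were 2 (FOXA1 and TBX3), and the distal and gained distal counts rose from 0 to 2, because TFAP2A and TFAP2C then counted as distal. No share of all genes is given for these or the other altered settings of this section, apart from the shares stated below. Counts without such a share cannot be set against those of all genes and are not a result about the members. Leaving out 1 parental library gave 4 to 5 promoter and gained promoter members, with GATA3 added without palbociclib replicate 2, and 0 to 1 distal and gained distal members, with TFAP2A added without palbociclib replicate 1. Of all genes, 39.6% had a promoter peak in palbociclib replicate 1 alone and 39.0% in replicate 2 alone. No member had a promoter peak in both DMSO lists under any of these settings, and the RB1 KO and IgG2a count (1, TBX3) was the same within 100 kb. No paired analysis was possible because no member peak was called in a DMSO library, and the planned ratios of palbociclib to DMSO by pileup, with pairing or without 1 library gave no value for the same reason. Presence in a list depends on its cutoff and depth, with 2 libraries per parental group and 1 per control, and a pileup of 5 to 13 fragments was the lowest that could be called at member sites. The sequences of TFAP2C and TBX3 are not reported here.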
